A study of Mus musculus with 36 samples.

Results

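The genes of the mitochondrial ribosome were described across 6 brain regions of mice with 2 genotypes. They were taken by symbol, as every gene named Mrpl or Mrps followed by a number and not marked as a pseudogene. This gave 78 of the 19025 genes in the gene expression table, 49 named Mrpl and 29 named Mrps. The animals were C57 mice of 6 to 7 weeks, either WT or KI. The series title gives the KI change as a synonymous change, rs1137070, in Maoa, the gene of monoamine oxidase A, and the labels name no driver, Cre or other agent. The regions carry the labels HP, PFc, Nac, SN, VTA and STR, which are kept as written, and each of the 12 groups of region and genotype held 3 libraries, 36 in all. Nothing in the labels says that the 3 libraries of a group came from separate mice, so p-values measure only how far these libraries vary, and that may be technical variation.

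Mitochondria keep a ribosome of their own, which translates the few messages of the mitochondrial genome into core subunits of the respiratory chain. Its RNAs are encoded in the mitochondrion, but every one of its proteins is encoded in the nucleus, made in the cytosol and imported. The small subunit (Mrps genes) decodes the message and the large subunit (Mrpl genes) forms the peptide bond and holds the exit tunnel. Many of the proteins descend from bacterial ribosomal proteins and others were added in the mitochondrial lineage. Neurons depend heavily on respiration, and inherited defects in several of these genes cause disease of brain, heart and liver.

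Some libraries did not carry the markers of their label, and this bears on every comparison. Earlier results on these data had set apart 8 libraries with markers of another region: WT Nac 2, WT VTA 3, KI HP 2, KI Nac 1, KI Nac 2, KI SN 1, KI SN 2 and KI STR 3. The mean log2 CPM (read counts scaled to library size) of 10 striatal markers was 8.48 in KI HP 2, 8.46 in KI SN 2 and 7.87 in WT VTA 3, against 6.65 to 8.45 in the WT STR libraries. The mean of 10 dopamine neuron markers was 0.12 in WT VTA 3 and 0.02 in KI SN 1, against 5.12 to 6.87 in the WT SN libraries, and was 6.72 in KI Nac 1. KI Nac 2 carried hippocampal markers at 6.03. KI PFc 1 is not among the 8 but also stood apart, with striatal markers at 6.76 against 3.53 to 4.59 in WT PFc. All STR libraries carried choroid plexus markers, at 5.30 to 7.61 against at most 4.99 elsewhere. They also carried thalamus markers, at 5.36 to 6.67 against at most 5.89 elsewhere (WT Nac 2). Total counts ran from 15145623 to 18863508 per library. Member counts were at least 106 in every library, with a median of 536, and all 78 passed the filter on low counts in every comparison.

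All 78 genes were expressed in all 36 libraries, at levels that differed far more between genes than between libraries. Levels between genes are given per transcript length, as TPM (a length-scaled share of all transcripts), averaged over the 36 libraries. The highest was Mrps21, a small-subunit protein with a bacterial counterpart (bS21), at 356.0 ± 57.8 TPM (SD, n = 36, range 227.6 to 464.6). Next came 2 large-subunit genes, Mrpl52 at 200.6 ± 38.5 TPM and Mrpl42 at 197.9 ± 25.2 TPM. The lowest were Mrpl1 at 14.02 ± 1.85 TPM, Mrpl19 at 13.4 ± 1.38 TPM and Mrpl17 at 10.6 ± 1.54 TPM, all 3 large-subunit genes with bacterial counterparts. The median gene stood at 65.5 TPM and the 10 highest genes held 30.4% of the summed level. TPM rests on the length used for each gene, and CPM gave another order. In WT HP 1 Mrpl17 had 32.1 CPM and 9.75 TPM, but Mrpl14 had 15.5 CPM and 82.3 TPM. Their median annotated transcripts were 743.5 and 645 bases, so the rank of Mrpl17 is uncertain.

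**Figure D1:**
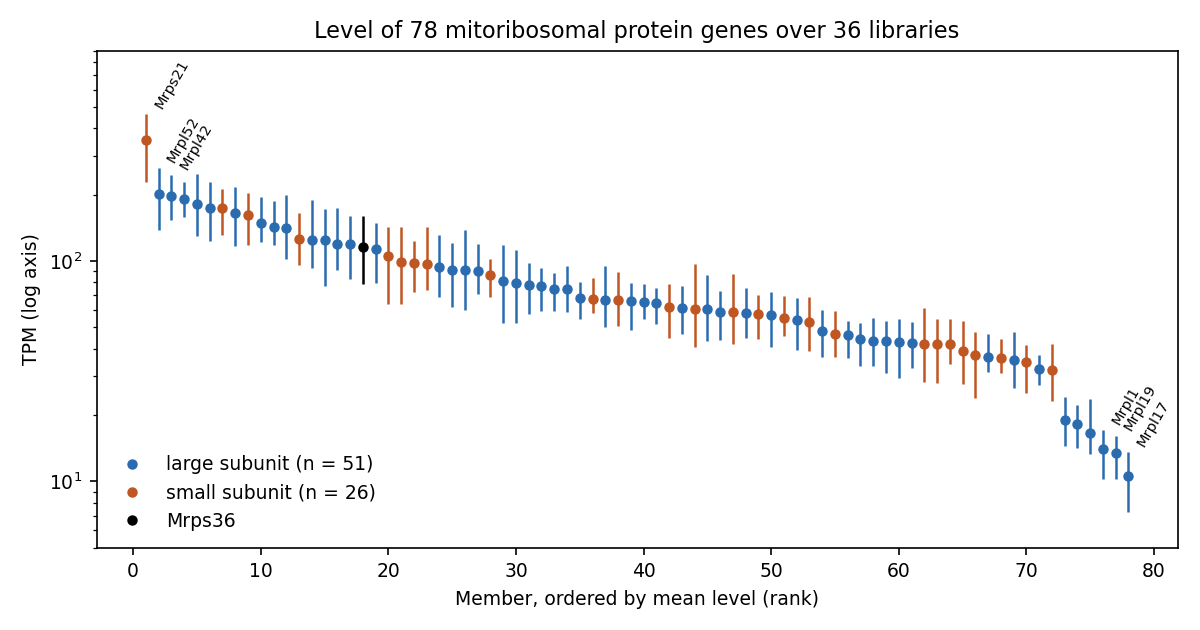
Level of each of the 78 members in TPM (log axis), ordered by mean; points are means and lines the lowest to highest of 36 libraries, coloured by subunit. Mrps21 stands above all others, and the 3 lowest are Mrpl1, Mrpl19 and Mrpl17.

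The subunits overlapped in level. The 51 genes of the large subunit had a median of 66.8 TPM and the 26 of the small subunit 59.7 TPM. Genes with a bacterial counterpart (46) had a median of 66.8 TPM and those without (31) 60.4 TPM. Within 1 gene the highest library was 1.37 to 2.38 times the lowest, with a median ratio of 1.72. The steadiest gene was Mrps30, with a coefficient of variation of 7.65% over the 36 libraries (32.4 TPM, range 27.5 to 37.6). The most variable were Mrps10 at 24.2%, Mrpl34 at 23.8% and Mrps6 at 23.0%.

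Some symbols mislead about the place of the protein. Mrps30 and Mrps18a are named for the small subunit but sit in the large one, and Mrps36 is now known as a subunit of the 2-oxoglutarate dehydrogenase complex. Mrps36 stood at 115.5 ± 21.4 TPM. The 3 paralogs of bacterial S18 differed in level: Mrps18c, in the position of bacterial S18, had 174.4 ± 20.6 TPM, Mrps18a 149.3 ± 17.8 TPM and Mrps18b, also of the small subunit, 41.9 ± 4.94 TPM. Their ranges over the libraries were 130.6 to 213.1, 122.6 to 194.4 and 34.3 to 54.5 TPM, so Mrps18b lay below both others in all 36 libraries.

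The genes lay on 17 chromosomes and none on X. In the GENCODE M21 annotation 26 of the 78 overlapped another protein-coding gene. Whether the counting used strand is not given in the sources used here, so reads of such a pair may be shared. A divergent protein-coding gene started within 1000 bases upstream of 18 members (23.1%), against 6.78% of all 21951 protein-coding genes. Mrpl54 and Apba3 start 26 bases apart, Mrps18c and the helicase gene Helq 29 bases, and Mrps18b and Ppp1r10 45 bases. Mrpl46, of the large subunit, and Mrps11, of the small subunit, lie head to head on chromosome 7 (GRCm38.p6, Mrpl46 at 78775341 to 78783089 on the minus strand, Mrps11 at 78783131 to 78792988 on the plus strand).

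The start sites shared letters that the choice by symbol did not use. RefSeq windows on GRCm38.p6 from 250 bases before to 50 bases after the start were matched for 69 of the 78 genes (75 windows) and searched on both strands. The core CCGGAAG of ETS factors, the family of the respiratory factor GABP (NRF2), was present in 26 of 69 genes (37.7%), against 12.9% of 17491 protein-coding genes and 9.93% of all 27025 genes with such windows. The core GCGCATGCG of NRF1, a factor of nuclear-encoded respiratory genes, was present in 7 (10.1%), against 2.61% of protein-coding and 1.95% of all genes. AAGATGGC, the core of YY1, was present in 12 (17.4%), against 3.57% and 3.19%. At least 1 of these cores stood in 38 of 69 genes and more than 1 in 7, and no window had overlapping matches of different cores. The GC box GGGCGG did not set the genes apart (49.3% against 49.2% of protein-coding genes), nor did CCAAT (39.1% against 42.3%), and TATAAA stood in 7.25% against 14.8%. A match is a description of letters, not a bound site.

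The windows of 4 genes are printed. Mrpl17 had the lowest TPM of all, though not the lowest CPM, and carries cores of both NRF1 and ETS. Mrpl34 and Mrpl42 differed by region, and the window of Mrps11 also holds the start of Mrpl46. Capitals mark matches to the NRF1, ETS and YY1 cores in either direction. They are chr7:105811038-105811337 on the minus strand for Mrpl17, chr8:71464676-71464975 on the plus strand for Mrpl34, chr10:95501900-95502199 on the minus strand for Mrpl42 and chr7:78782881-78783180 on the plus strand for Mrps11.
Mrpl17: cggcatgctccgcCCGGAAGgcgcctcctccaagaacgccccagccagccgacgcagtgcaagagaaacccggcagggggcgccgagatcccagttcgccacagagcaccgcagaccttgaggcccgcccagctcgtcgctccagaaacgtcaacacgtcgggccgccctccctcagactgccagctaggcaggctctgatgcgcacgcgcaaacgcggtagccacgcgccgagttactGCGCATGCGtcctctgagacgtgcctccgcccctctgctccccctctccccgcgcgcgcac
Mrpl34: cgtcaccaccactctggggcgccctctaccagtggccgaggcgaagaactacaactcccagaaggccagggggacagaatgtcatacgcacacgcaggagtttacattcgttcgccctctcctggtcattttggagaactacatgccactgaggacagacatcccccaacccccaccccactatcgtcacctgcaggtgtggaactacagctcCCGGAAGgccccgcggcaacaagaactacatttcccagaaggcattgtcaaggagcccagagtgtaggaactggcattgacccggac
Mrpl42: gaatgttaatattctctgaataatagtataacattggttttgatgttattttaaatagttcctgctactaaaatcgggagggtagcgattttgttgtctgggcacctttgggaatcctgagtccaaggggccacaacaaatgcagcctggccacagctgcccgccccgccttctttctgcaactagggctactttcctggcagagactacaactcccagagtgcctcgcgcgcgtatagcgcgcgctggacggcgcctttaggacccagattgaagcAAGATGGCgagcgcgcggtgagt
Mrps11: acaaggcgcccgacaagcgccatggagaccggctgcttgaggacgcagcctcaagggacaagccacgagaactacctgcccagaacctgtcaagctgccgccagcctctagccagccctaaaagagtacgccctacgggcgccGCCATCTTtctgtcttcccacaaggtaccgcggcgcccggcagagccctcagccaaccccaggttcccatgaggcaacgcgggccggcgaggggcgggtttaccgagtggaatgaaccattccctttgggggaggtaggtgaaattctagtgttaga
The Mrpl42 window carries the YY1 core after the start, and the Mrps11 window carries it in reverse before the start.

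**Figure D2:**
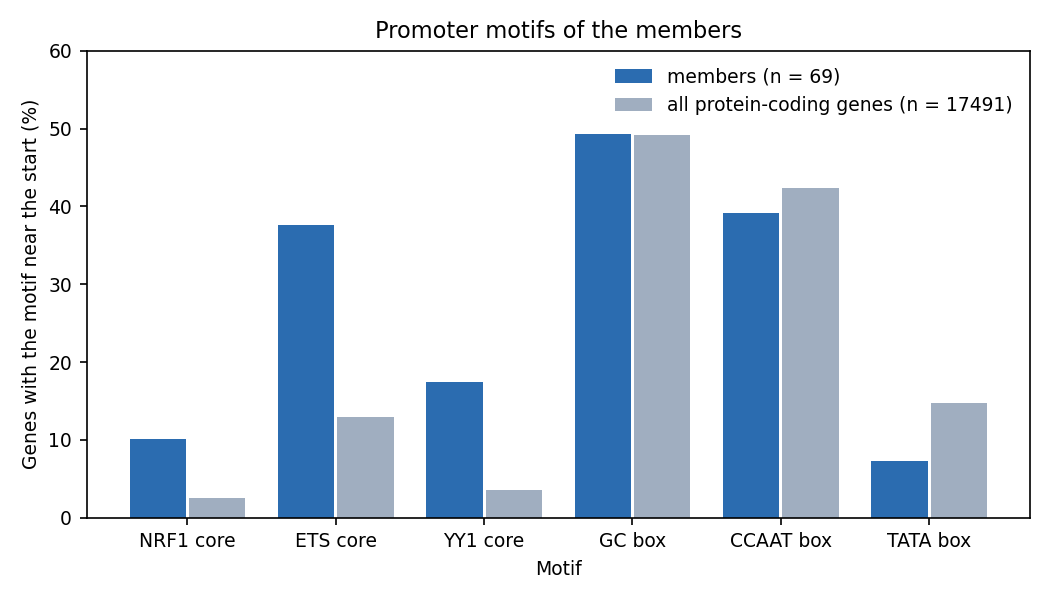
Share of genes (%) with each motif in the 300 bases around the start, for 69 members and 17491 protein-coding genes. The ETS, NRF1 and YY1 cores stood in 37.7%, 10.1% and 17.4% of members against 12.9%, 2.61% and 3.57%.

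Across regions of WT mice the genes were lowest in PFc and highest in VTA. The summed level of the 78 genes was lowest in PFc at 5681 ± 284.1 TPM, followed by HP (6080 ± 363.7), Nac (6534 ± 172.1), STR (6785 ± 451.6), SN (6985 ± 416.8) and VTA (7046 ± 1061; SD, n = 3 each). PFc libraries had 5405, 5973 and 5664 TPM, HP libraries 6495, 5926 and 5818, and VTA libraries 7334, 7934 and 5871. Neighbours in this order overlapped: PFc with HP, HP with Nac, and Nac, STR, SN and VTA with each other. HP also overlapped STR, and VTA overlapped both PFc and HP through its library at 5871. The lowest VTA library was WT VTA 3, which carried striatal markers. In the single libraries, 3 to 18 of the 78 genes were above their own 36-library median in WT PFc, against 71 and 78 in WT VTA 1 and 2 and 11 in WT VTA 3. In bulk tissue, fewer cells of a type and less RNA per cell cannot be told apart.

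**Figure D3:**
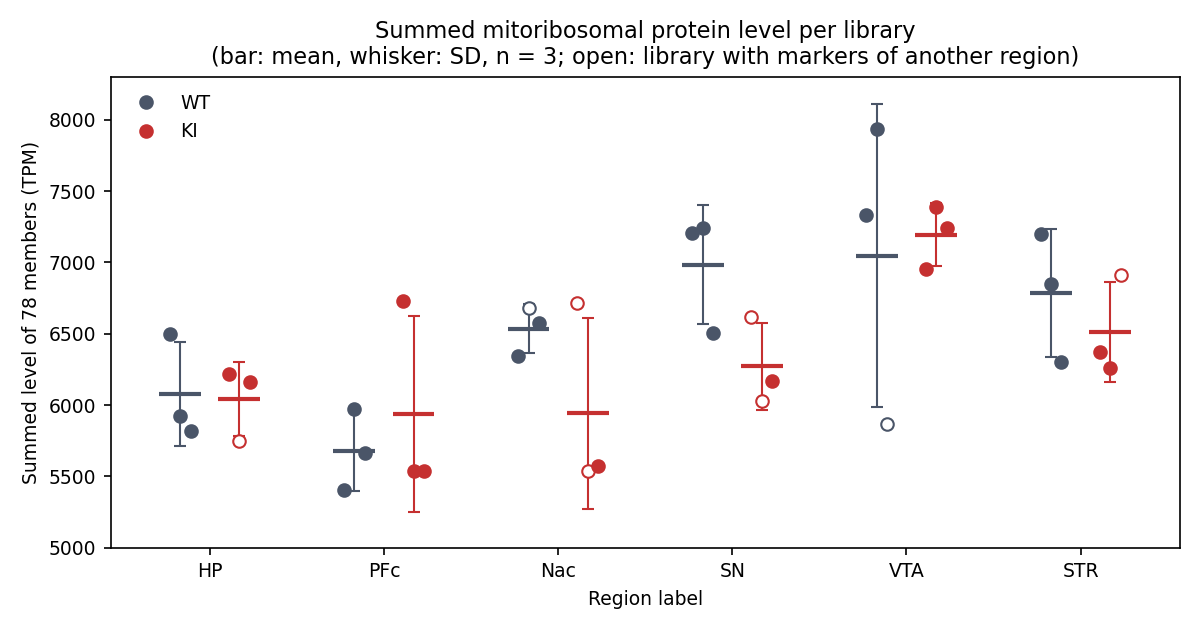
Summed level of the 78 members (TPM) by region label and genotype, 1 point per library, with mean and SD (n = 3); open points are the 8 libraries with markers of another region. WT PFc lies between 5405 and 5973, and WT VTA spans 5871 to 7934.

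Gene by gene, PFc was the lowest WT region for 61 of 78 members (78.2%, against 20.8% of all genes tested), and VTA the highest for 47 (60.3%, against 16.1%). Without the 2 WT libraries among the 8, PFc was again lowest for 61 and VTA highest for 70 (24.9% of all genes). Both neighbouring gene groups shared parts of this order: PFc was lowest for 93.7% of nuclear oxidative phosphorylation genes and 27.6% of cytosolic ribosomal protein genes, and VTA highest for 59.5% and 98.7%. The size of the difference was small: the highest region mean was 1.37 times the lowest at the median over members, against 1.53 times at the median of the 10299 genes with a mean of at least 10 CPM. In edgeR's quasi-likelihood F test over the 6 regions, 14 of 78 members passed an adjusted p of 0.05 (17.9%), against 48.0% of all 15094 genes tested. Of the 14, 10 were of the large subunit (of 51) and 4 of the small (of 26). DESeq2 called 22 (49.7% of all genes tested). Without the 2 libraries edgeR called 46 members, against 70.0% of all genes tested. Leaving out all WT libraries numbered 1 left no member called (14.2% of all genes), as did leaving out those numbered 2 (25.3%), and leaving out those numbered 3 gave 26 (39.0%).

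The member with the smallest p was Mrpl34, a short large-subunit protein of bacterial type (bL34; GRCm38.p6 chromosome 8, 71464926 to 71465753). It had 14.3, 13.6 and 12.1 CPM in HP, 13.1, 14.3 and 14.7 in PFc, and 17.1, 18.97 and 17.2 in Nac. It had 23.8, 24.5 and 20.8 CPM in SN, 27.8, 30.7 and 15.3 in VTA, and 24.2, 22.4 and 20.1 in STR. All 6 HP and PFc libraries lay below all 9 of SN, VTA and STR, and WT VTA 3 was the lowest of those 9. The highest region mean was 1.85 times the lowest, with an adjusted p of 0.00324 (edgeR).

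Mrpl54, a large-subunit protein without a bacterial counterpart, had 17.1, 12.4 and 12.8 CPM in HP, 11.0, 16.3 and 13.2 in PFc, and 22.7, 21.7 and 22.9 in Nac. It had 27.5, 27.0 and 18.1 in SN, 26.5, 32.2 and 19.5 in VTA and 29.1, 25.7 and 20.2 in STR. All HP and PFc libraries were again below all others (adjusted p 0.00392, edgeR). Its start lies 26 bases from that of Apba3.

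Mrps6, a small-subunit protein of bacterial type (bS6), ran from 15.8 to 25.5 CPM in HP and PFc and from 25.7 to 42.0 in SN, VTA and STR (adjusted p 0.00644, edgeR). Slc5a3, a gene of a myo-inositol transporter, overlaps it on the same strand and starts 52 bases away, so the split of reads between them is uncertain. Mrpl51 ran from 26.7 to 31.4 CPM in HP and PFc and from 34.3 to 61.6 in the other 3 (adjusted p 0.0100, edgeR). Mrpl42 ran from 28.4 to 35.6 against 35.1 to 58.1 CPM (adjusted p 0.00684) and Mrpl24 from 22.3 to 31.4 against 30.8 to 51.2 CPM (adjusted p 0.00974). The groups touched for both, though for Mrpl42 they did not without WT VTA 3. At the other end, Mrps17 had region means of 29.7 to 32.7 CPM (adjusted p 0.916) and Mrpl49 of 46.7 to 51.2 CPM (adjusted p 0.877), with p-values that do not show equal levels.

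**Figure D4:**
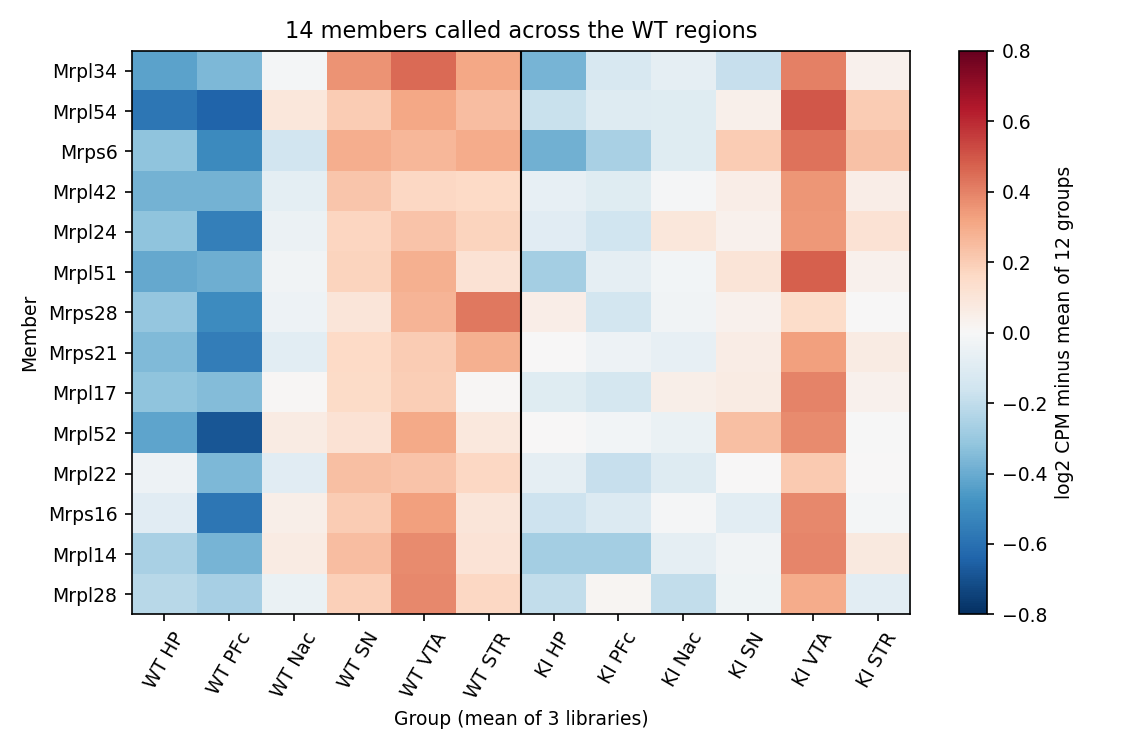
Mean log2 CPM of the 14 members called across WT regions, relative to the mean of the 12 groups of 3 libraries, ordered by p; rows are members and columns groups. WT HP and PFc are low, and VTA is the highest KI region for all 14.

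The KI libraries gave a look at the same order in samples that the WT test did not use. All 14 members called in WT were highest in KI VTA, as were 63 of all 78, against 29.6% of all genes tested. The lowest region was less uniform: of the 14, 7 were lowest in KI HP, 5 in KI PFc and 2 in KI Nac. Of all 78, 23 were lowest in KI PFc, 20 in HP, 18 in Nac, 15 in STR and 2 in SN. In WT, PFc was lowest for 61, so that low end was not seen for most members in KI. The shares of all genes for the lowest KI region are not given. The 3 KI VTA libraries had 6953, 7385 and 7244 TPM summed, each above all other KI libraries (5538 to 6914). Without the 6 KI libraries among the 8, all 14 were again highest in VTA, as were 56 of the 78. Of the 14, 9 were then lowest in Nac, 3 in HP and 2 in PFc, and Nac was lowest for 44 of the 78. In that set Nac and SN rest on KI Nac 3 and KI SN 3 alone. The shares over all genes are not given for it, so these counts are not set against them. Among the libraries of the 5 other KI regions, 7 carried markers of another region, and KI SN 3 had striatal markers above those of WT SN.

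Oligodendrocyte markers were lower in WT HP and PFc than in WT SN, VTA and STR, as the members were on average. At the low end the order differed: the markers were lowest in HP and the members in PFc. The summed CPM of 10 markers, none at 0 in any library, was 4057 to 5119 in WT HP and 5049 to 7016 in WT PFc. It was 8407 to 14554 in WT Nac, and 13554 to 19161 over WT SN, VTA and STR. WT VTA 3 fell outside this order, with low members (11 above their median) and a mean marker log2 CPM of 9.60, the joint highest in WT. The part of these cells in the region order was not tested.

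Over the regions together, members went both ways between genotypes. With counts of the 6 regions summed per library number (3 WT and 3 KI sums), 41 of 78 were higher and 37 lower in KI, and the median log2 fold change (KI over WT) was 0.01 (-0.01 with library size only), against -0.004 over all 16171 genes tested. No member passed an adjusted p of 0.05 in edgeR (0% of all genes), 3 had an unadjusted p under 0.05 (19.9% of all genes), and 2 higher and 3 lower members had no overlap between WT and KI (26.3% of all genes). Single sums moved this balance: 61 were higher without the KI sum numbered 2 (median 0.07), and 57 were lower without the WT sum numbered 3 (median -0.06). The median was -0.05 without the KI sum numbered 1. The large subunit had a median of -0.02 and the small subunit 0.02. The authors' deposited table lists no member with a q under 0.05 in any region, the smallest q being 0.187, in SN.

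The member nearest to a difference was Mrpl23, a large-subunit protein at the exit tunnel (uL23). Its sums were 24.6, 24.2 and 22.0 CPM in WT and 27.7, 27.4 and 28.4 CPM in KI. All KI sums lay above all WT sums, with a log2 fold change of 0.26 ± 0.07 (SE) and an adjusted p of 0.100 in edgeR. DESeq2 called it with an adjusted p of 0.0184, as the only member among the 9.11% of genes that it called. In HP it had 23.7, 18.2 and 18.3 CPM in WT and 24.2, 29.1 and 30.0 in KI (log2 fold change 0.46 ± 0.16, adjusted p 0.314, edgeR). Mrps33, a small-subunit protein without a bacterial counterpart, had sums of 65.8, 63.5 and 56.6 CPM in WT and 77.9, 66.4 and 69.4 in KI (0.22 ± 0.08, adjusted p 0.201). Mrps18c had 21.2, 21.7 and 19.5 against 26.1, 21.5 and 23.7 CPM (0.21 ± 0.08, adjusted p 0.219), where the groups touched. Mrps18a (-0.04), Mrps18b (0.04), Mrps30 (0.03) and Mrps36 (0.01) differed by less than their standard errors.

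Without the 8 libraries the sums are incomplete, so the 28 single libraries were fitted with region as a term. Libraries with 1 number may share a mouse and are counted singly in that fit. The median was 0.005 with 40 of 78 higher, and edgeR called 2 members, both lower in KI (16.7% of all genes were called). They were Mrps2, a small-subunit protein of bacterial type (uS2), with a log2 fold change of -0.15 ± 0.05 and an adjusted p of 0.0292, and Mrpl38, with -0.16 ± 0.06 and 0.0485. For Mrps2 the sums over all libraries were 35.4, 35.1 and 33.3 CPM in WT and 31.7, 31.6 and 31.0 in KI, without overlap. DESeq2 on the 28 libraries called 4 (19.5% of all genes): Mrps2, Mrpl38 and Mrpl45 lower, and Mrpl23 higher (adjusted p 0.0402). Each share of members called lay under that of all genes.

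**Figure D5:**
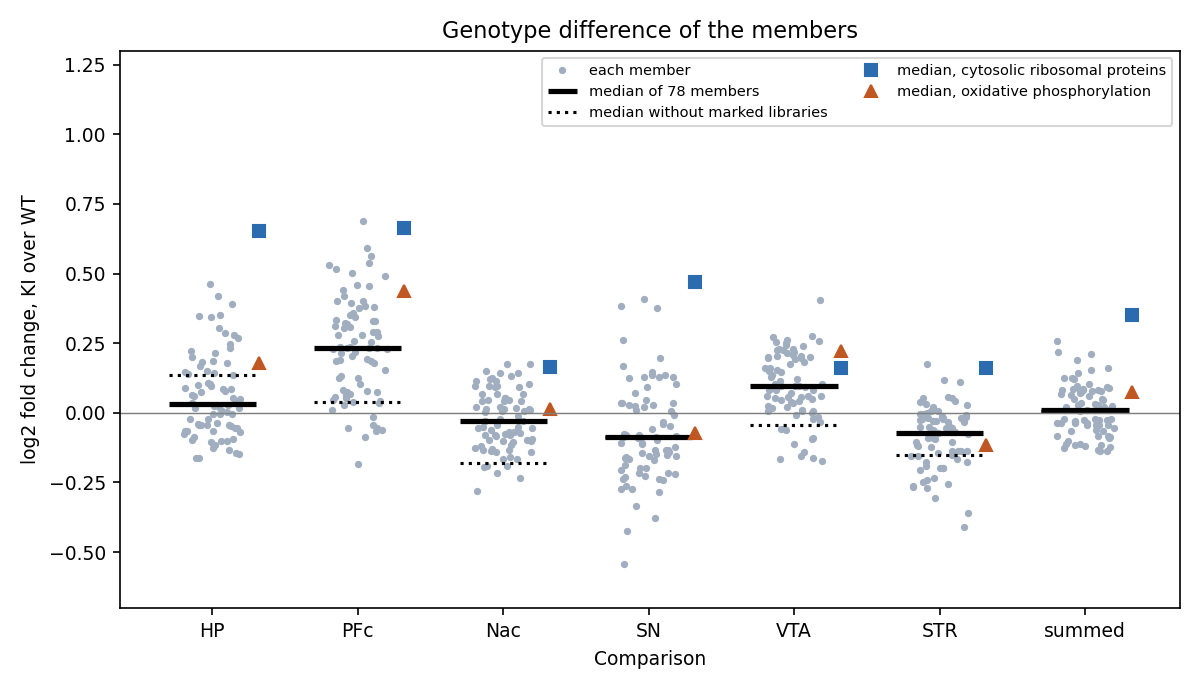
Log2 fold change (KI over WT) of each of the 78 members per region and for the sums; solid bars are their medians, dotted bars the medians without the libraries named as standing apart (KI PFc 1 for PFc), squares and triangles the medians of cytosolic ribosomal protein and oxidative phosphorylation genes. Member medians lie between -0.09 and 0.23, and the square for the sums is at 0.35.

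In PFc the members were shifted together, by a difference that rested on 1 library. Of 78, 70 were higher in KI, with a median of 0.23, against 0.03 over all genes tested. None passed in edgeR (0%) or DESeq2 (3.06% of all genes), 8 had an unadjusted p under 0.05 (18.1% of all genes), and 10 had all KI above all WT libraries (28.4% of all genes, either direction). The summed level was 6730 TPM in KI PFc 1 and 5542 and 5538 in the other KI libraries, against 5405 to 5973 in WT. Without KI PFc 1, 48 of 78 were higher and the median was 0.04. Mrpl12, a large-subunit protein of bacterial type (bL12) at the stalk, had 45.6, 64.3 and 53.1 CPM in WT and 76.8, 69.9 and 71.5 in KI (0.44 ± 0.15, adjusted p 0.222, edgeR). For Mrpl12 the 2 KI libraries other than KI PFc 1 were thus also above all WT libraries. Mrps26 (0.52 ± 0.19, adjusted p 0.230) and Mrpl30 (0.40 ± 0.14, adjusted p 0.236) also had no overlap. Cell type markers moved in the same comparison. All 10 microglia markers were higher in KI PFc (median log2 fold change 0.70, 8 called by DESeq2), with summed levels of 571.4 to 809.7 in WT and 978.2 to 1192 CPM in KI. All 10 astrocyte markers (median 0.43) and all 8 endothelial markers (0.36) were higher, and all 5 choroid plexus markers tested were lower (-2.66). Summed astrocyte markers were 5640 to 6721 CPM in WT, 5093.5 in KI PFc 1, and 8874 and 10024 in the other KI libraries. Choroid plexus markers summed to 39.1, 1438 and 78.4 CPM in WT and 44.1, 47.7 and 16.2 in KI. The value of 1438 was that of WT PFc 2. Oligodendrocyte markers summed to 17820 CPM in KI PFc 1, 4857 and 3549 in the other KI libraries, and 5049 to 7016 in WT. The part of these cells in the member values was not tested.

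In HP, 46 of 78 were higher in KI with a median of 0.03. None passed in edgeR (0%) or DESeq2 (2.20% of all genes), 2 had an unadjusted p under 0.05 (14.2% of all genes), and 5 higher and 2 lower had no overlap (23.9%). Without KI HP 2, which carried striatal markers, 68 were higher and the median was 0.13. Its sign changed without WT HP 2 (-0.003), WT HP 3 (-0.01) or KI HP 3 (-0.01). Besides Mrpl23, the smallest p-values were those of Mrpl42 (32.1 ± 3.61 CPM in WT, 39.8 ± 1.69 in KI, adjusted p 0.337, edgeR) and Mrps15 (16.8 ± 1.08 and 20.0 ± 0.18, adjusted p 0.366). The summed oligodendrocyte markers were 10092 to 13127 CPM in KI HP, above the 4057 to 5119 of WT HP. All 10 microglia markers (median 0.55) and all 10 astrocyte markers (0.40) were also higher. The part of these cells in the member values was not tested.

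In VTA, 63 of 78 were higher with a median of 0.10, and this turned with 1 library. Without WT VTA 3, 34 were higher and the median was -0.04. None passed in edgeR (0%) or DESeq2 (1.25% of all genes), none had an unadjusted p under 0.05 (13.0% of all genes), and 1 higher and 1 lower had no overlap (23.9%). Mrpl12 had 72.3, 94.4 and 54.0 CPM in WT and 93.0, 90.2 and 102.8 in KI, with the value of 54.0 from WT VTA 3 (0.41 ± 0.20, adjusted p 0.421, edgeR). Mrps33 (0.28 ± 0.14) and Mrps18c (0.26 ± 0.14) followed, with overlapping groups. All 10 oligodendrocyte markers (median 0.44) and all 8 endothelial markers (0.52) were higher in KI VTA, and their part was not tested.

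In STR, 64 of 78 were lower in KI, with a median of -0.07, and 72 were lower without KI STR 3 (median -0.15). Under scaling by library size only, 50 were lower. Without WT STR 1, however, 42 were higher and the median was 0.01. None passed in edgeR (0%) or DESeq2 (1.38% of all genes), 1 had an unadjusted p under 0.05 (10.8% of all genes), and 1 higher and 7 lower had no overlap (17.6%). The 1 was Mrpl37, a large-subunit protein without a bacterial counterpart, at 36.3, 35.5 and 32.6 CPM in WT and 28.9, 25.6 and 26.2 in KI (-0.36 ± 0.12, adjusted p 0.372, edgeR). All KI values lay below all WT values. Mrpl10, a stalk protein (uL10), had 56.6, 63.3 and 53.4 against 48.9, 47.1 and 48.2 CPM, also without overlap (-0.25 ± 0.11, adjusted p 0.465). Mrps18a had 59.0, 56.0 and 43.0 against 41.6, 40.1 and 45.2 CPM (-0.31 ± 0.15), with overlap. All 10 striatal markers were lower in KI STR (median -1.16), with summed levels of 1848 to 6299 CPM in WT and 460.7 to 2522 in KI. All 8 choroid plexus markers were lower too (median -0.55, 11166 to 16271 and 3589 to 10723 CPM summed). The lowest KI values of both lists, 460.7 and 3589 CPM, were those of KI STR 3, which is among the 8. KI STR 1 and KI STR 2 had 2522 and 1921 CPM of striatal markers, inside the WT range. Their choroid plexus markers, at 9631 and 10723 CPM, lay below it. Summed oligodendrocyte markers went the other way, at 13554 to 16410 CPM in WT STR and 19113 to 25599 in KI STR. The part of these cells in the member values was not tested.

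In SN, 52 of 78 were lower in KI with a median of -0.09, and 63 were lower under scaling by library size only. Without KI SN 1 and KI SN 2, which carried markers of other regions, 58 were lower and the median was again -0.09, with 1 KI library left. Without WT SN 3, 66 were lower and the median was -0.20, and without WT SN 1 43 were lower and it was -0.02. None passed in edgeR (0%) or DESeq2 (6.26% of all genes), 2 had an unadjusted p under 0.05 (17.6% of all genes), and 2 higher and 4 lower had no overlap (24.0%). Mrpl34 had 23.8, 24.5 and 20.8 CPM in WT and 15.2, 13.2 and 18.97 in KI (-0.54 ± 0.19, adjusted p 0.209, edgeR). KI SN 3, the library that remains without KI SN 1 and KI SN 2, was the highest of the 3 for Mrpl34 and still under all WT libraries. Mrps33 went the other way, at 61.4, 63.0 and 43.9 CPM in WT and 76.03, 73.8 and 73.5 in KI (0.41 ± 0.17, adjusted p 0.281). Mrpl46 had 38.1, 33.7 and 24.1 against 24.1, 22.6 and 24.6 CPM (-0.42 ± 0.20, adjusted p 0.315). KI SN 3 carried dopamine neuron markers at 5.77 (mean log2 CPM), but its striatal markers were at 5.56, against 3.58 to 3.67 in WT SN. Summed oligodendrocyte markers were 2728 CPM in KI SN 1, 15083 in KI SN 2 and 25112 in KI SN 3, and 15525 to 19160 in WT SN. The part of these cells in the member values was not tested.

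In Nac, 36 of 78 were higher with a median of -0.03 (14 higher under scaling by library size only), and the spread between libraries was wide. None passed in edgeR (0%) or DESeq2 (0.0112% of all genes), none had an unadjusted p under 0.05 (1.02% of all genes), and 2 higher and 1 lower had no overlap (4.10%). The lower one was Mrpl10, with 61.4, 58.3 and 55.8 CPM in WT and 51.5, 49.4 and 50.2 in KI (-0.22 ± 0.14, adjusted p 0.9998, edgeR). Mrpl57 (-0.23 ± 0.17) and Mrps35 (-0.28 ± 0.24) had overlapping groups. Without the 3 Nac libraries of the 8, only KI Nac 3 remained for KI, 19 of 78 were higher and the median was -0.18. The sign of the median changed without KI Nac 2 (0.06) or KI Nac 3 (0.04). The fit with 1 KI library assumes that the lone library varies like the WT ones.

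The genotype difference itself was tested for a difference between regions. No member passed in edgeR's interaction test (0% of all genes) or in DESeq2 with all libraries (0.2% of all genes). None had an unadjusted p under 0.05 in edgeR (8.73% of all genes). The smallest adjusted p-values in edgeR were 0.570 for Mrps28, 0.591 for Mrpl42 and 0.605 for Mrps30. Mrps28 had a log2 fold change of 0.38 ± 0.25 in PFc and -0.41 ± 0.21 in STR. In DESeq2 without the 8 libraries 1 member passed (6.94% of all genes): Mrps5, a small-subunit protein of bacterial type (uS5), with an adjusted p of 0.0368. With all libraries Mrps5 had 36.5 ± 1.01 CPM in WT STR and 31.7 ± 0.75 in KI STR, and 30.5 ± 0.21 and 31.3 ± 2.32 in PFc.

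The genes that serve the mitochondrial ribosome also had no member called by edgeR over the sums. Of 13 translation factors tested, 11 were lower in KI (median -0.13) and 3 had an unadjusted p under 0.05, against 19.9% of all genes. DESeq2 called 9.11% of all genes in this comparison. Taco1, an activator of Cox1 translation, had 14.5 ± 0.41 CPM in WT and 11.95 ± 0.18 in KI (-0.25 ± 0.07, adjusted p 0.105 in edgeR and 0.0277 in DESeq2). The elongation factor Gfm1 (-0.17 ± 0.06) and the release factor Mtrf1l (-0.17 ± 0.07) had adjusted p-values of 0.200 and 0.242 in edgeR. Of 27 genes of mitochondrial transcription and RNA handling, 20 were lower (median -0.10) and 8 had an unadjusted p under 0.05 (19.9% of all genes). Fastkd1, an RNA-binding protein of mitochondria, had 13.2 ± 0.45 against 10.6 ± 0.56 CPM (adjusted p 0.0903 in edgeR, 0.0115 in DESeq2). Lrpprc, which stabilises mitochondrial messages, had 79.6 ± 1.43 against 65.5 ± 5.16 CPM (adjusted p 0.105 and 0.0188). The helicase Supv3l1 had -0.21 ± 0.06 (adjusted p 0.127, edgeR).

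Of 24 assembly factors, 15 were lower (median -0.02), with Dhx30, a helicase needed for assembly, at 103.5 ± 2.09 CPM in WT and 90.3 ± 1.87 in KI (adjusted p 0.158, edgeR). Of 17 mitochondrial aminoacyl-tRNA synthetases, 12 were lower (median -0.07), while Iars2, for isoleucine, was at 58.8 ± 1.42 and 65.0 ± 2.30 CPM (adjusted p 0.168). The 5 ribosomal proteins with other symbols (Dap3, Chchd1, Aurkaip1, Ptcd3 and Gadd45gip1) had a median of 0.03. Messages of the mitochondrial genome were not analysed here.

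The 2 neighbouring groups of genes gave other values in the same fits. All 76 cytosolic ribosomal protein genes were higher in KI over the sums, with a median of 0.35, while the mitochondrial ones had 0.01. In HP the medians were 0.65 and 0.03, in PFc 0.67 and 0.23, in SN 0.47 and -0.09, in STR 0.16 and -0.07, in VTA 0.16 and 0.10, and in Nac 0.17 and -0.03. DESeq2 called 72 of the 76 over the sums, and edgeR none. The 80 nuclear oxidative phosphorylation genes had medians of 0.07 over the sums, for HP 0.18, for PFc 0.44, for SN -0.07, for STR -0.11, for VTA 0.22 and for Nac 0.01. The comparisons share their libraries, so these are values side by side and the difference between the groups was not tested.

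Transcript length moved with these values in some comparisons. Members were short, with a median transcript of 1052 bases. In PFc, genes under 1000 bases had a median log2 fold change of 0.22 and those over 2000 bases -0.08, over all genes tested. The 36 members under 1000 bases had 0.32 and the 18 over 2000 bases 0.13. Over the sums the members had 0.07 under 1000 bases, -0.04 at 1000 to 2000 and -0.02 above, against 0.05, 0.02 and -0.03 for all genes. The part of length in the member values was not tested.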

How the data were processed

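The 36 RNA-seq libraries were made with a SMARTER mRNA kit, per the labels' protocols, and the build was GRCm38.p6, per the submitters' processing notes. The sources used here name no aligner, counter or strand setting. The authors deposited expected counts and TPM per gene, TPM per transcript, and tables with log2 fold changes and q-values. Of the count values 9.88% were not whole, and counts were rounded. 180 other per-sample columns were not used.

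Groups followed the titles. Each comparison was fitted over all genes passing filterByExpr with edgeR 4.0.16 (TMM, quasi-likelihood, Benjamini-Hochberg, threshold 0.05) in R 4.3.3. DESeq2 1.42.0, other normalizations, no filter, a replicate block, leaving out libraries and leaving out the 8 named libraries were alternatives. DESeq2 together with leaving out the 8 was chosen after seeing the data. CPM values are scaled by TMM over 36 libraries, and those of sums by their totals. Standard errors come from the edgeR F statistic. Tested on simulated data, 2-fold changes were recovered in 22% of changed genes in HP (14144 genes), 56% in PFc (14167), 1% in Nac (14333), 18% in SN (14418), 21% in VTA (14490), 77% in STR (14658) and 90% for the sums (16171).

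Members and lists were chosen with earlier results of these data known. Named members were the 3 with the smallest p per genotype comparison and for the interaction, the 6 smallest and 2 largest p over WT regions, the 3 highest and 3 lowest levels, genes with misleading symbols or paralogs, and members called by either tool; other genes were up to 3 per list by p over the sums. Promoters were from RefSeq and neighbours from GENCODE M21.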

Additional observations from a re-analysis of the deposited data

How the results depend on the processing

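Members called over the WT regions numbered 14 in edgeR (48.0% of all genes), 22 with DESeq2 (49.7%), 41 with library size only (49.8%), 46 without the 8 libraries (70.0%) and 50 with DESeq2 without them (69.4%). The members' share lay above that of all genes with library size only and below it in the other 4. Leaving out the libraries of 1 number gave 0 to 26, and the cause was not tested. With the replicate block 26 were called (49.9%). Same-numbered WT and KI libraries of a region had deviations correlated between -0.465 and 0.461 over genes, both extremes in Nac. Across regions, same-numbered libraries of 1 genotype ran from -0.457 to 0.601 in WT and from -0.522 to 0.486 in KI. These values do not decide whether libraries with 1 number share a mouse. The block is therefore an alternative only, and it changed no member's call in a genotype comparison. Over the sums, members called were 0 in edgeR, 1 with DESeq2, 2 without the 8 libraries and 4 with DESeq2 without them, and the interaction had 1 called in that last fit. In the single regions no alternative called a member. The share of all genes called there ran from 0% to 13.5%, the highest with DESeq2 in VTA without WT VTA 3. The members' medians moved by less than the spread between libraries in all 89 alternatives. That spread is the SD of single libraries, which leaving out 1 of 3 can hardly exceed, so this does not show stable medians. In PFc the median fell from 0.23 to 0.04 without KI PFc 1. The sign of the medians differed between some alternatives, as for VTA, where 1 library decided it. Mrpl23 over the sums passed only with DESeq2, with and without the 8 libraries. The 3 members with the smallest p in each genotype comparison kept their direction in every alternative run, with 265 values on the same side of the threshold and 2 now past it. They were picked by p in these same libraries, so a kept direction was favoured by the choice. Other named members did not all keep theirs: Mrps28 over the sums was at -0.02, and at 0.05 without the KI sum numbered 2. Precision is limited by 3 libraries per group, down to 1 without the 8.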
